A study of Mus musculus with 30 samples.

Results

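Mouse lung taken after 10 h in 10% oxygen was compared with lung of a group titled Norm, on Affymetrix MG-U74 version 2 arrays, which come as 3 types (A, B and C) with different probe sets. Arrays were chosen by title. There were 6 titled for 10 h and 5 titled Norm, which is 11 of the 30 arrays of the series. The samples of a group carry the letters 1a and 1b, with 1 array per sample and type. A further array titled Norm 1a for type A stood in the table of the B arrays, had Spearman correlations with them between -0.00277 and 0.00963, and was left out. Type A therefore held 2 arrays at 10 h against 1 of Norm, and types B and C held 2 against 2.

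Per the labels, the 10 h animals breathed 10% oxygen in a chamber, a treatment used to raise pulmonary pressure, and lung RNA was taken at its end. The titles do not say what Norm stands for, and the description attached to the Norm arrays names a mild rejection, a term of transplantation. The titles were followed. Strain, sex and age are not given, nor whether 1a and 1b were separate animals or pools. The p-values set a difference only against the scatter of such samples within all 5 groups of the series. That scatter may be technical. Lung was taken whole, so fewer cells of a type and less RNA per cell cannot be told apart in any value. The defining lung transcripts were bright on every A array used here: Sftpb, a surfactant protein of alveolar type II cells, read 10627 and 13178 at 10 h and 17146 on Norm 1b.

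As background, cells sense low oxygen through prolyl hydroxylases (Egln1 to Egln3) that mark the hypoxia-inducible factors HIF-1alpha (Hif1a) and HIF-2alpha (Epas1) for destruction while oxygen lasts. When oxygen falls, the factors persist and raise genes of glycolysis, red cell production and vessel growth. Lung vessels also constrict in low oxygen, and endothelin-1, a peptide made by endothelium, is a strong constrictor and a growth signal for smooth muscle. An animal placed in low oxygen mounts a systemic stress response as well, in which glucocorticoids, metals and cytokines raise liver and lung transcripts within hours.

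Values are deposited intensities, already scaled to 1 mean. For the tests, each type had a floor at the 40th percentile of its values (A 236.05, B 297.36, C 200.93) to which lower values were set, log2 was taken, and limma gave each difference (10 h minus Norm) with its standard error (SE). Each of 13044 genes was followed by 1 representative probe set, and 25801 probe sets were tested. None passed an adjusted p of 0.05 (Benjamini-Hochberg over all probe sets, 0% called), and the smallest adjusted p was 0.0743. At an unadjusted p under 0.05, 829 probe sets read higher and 748 lower at 10 h. By gene, 2.69% read higher and 2.87% lower at that level, which is the background for each count of genes below. The gene lists and their members were chosen with earlier results of these data known. A list's share above that background is therefore only a description. The plot of all genes shows their spread.

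**Figure D1:**
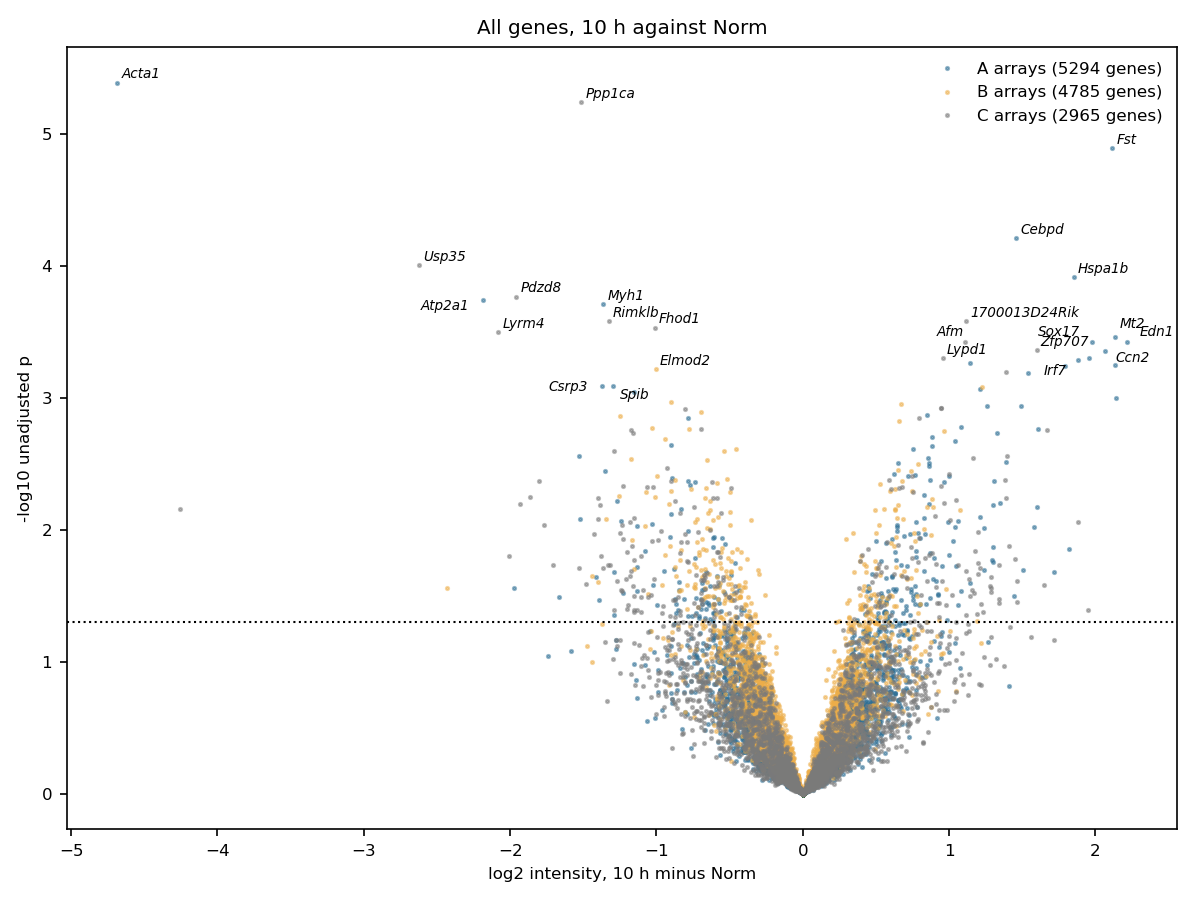
Difference in log2 intensity between 10 h and Norm (x axis) against -log10 of limma's unadjusted p (y axis), with a point for each gene, coloured by the array type of its probe set, with a dotted line at the 0.05 level. The top 12 genes in each direction are named. Acta1 stands at the far left at -4.69, and Fst is the highest point on the right.

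The labels were set against each other through genes measured on 2 array types (1303 on A and B, 1322 on A and C, 1538 on B and C), by correlating each array's deviations from the gene means. The 10 h arrays of type A correlated best with 10 h arrays of B and of C, at r = 0.14 and 0.21 on B and 0.12 and 0.09 on C. The A array labelled Norm 1b did not: r was 0.02 with B Norm 1b and 0.03 with C Norm 1b, against 0.16 and 0.15 with 4 d 1a. The A array labelled 4 d 1a correlated with neither (-0.01 and -0.03). B Norm 1b correlated as well with C 10 h 1a (0.11) as with C Norm 1b (0.11), and B 10 h 1a correlated more with C Norm 1b (0.09) than with its own group (0.05). No array was relabelled. Results on A are therefore given with all 9 A arrays, which include 2 at each of 2 d, 4 d and 6 d of 10% oxygen, and with 10 h set against the Norm and 4 d arrays pooled, a reference that an exchange between those labels leaves as it is. This reference was added after the data had been seen.

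**Figure D2:**
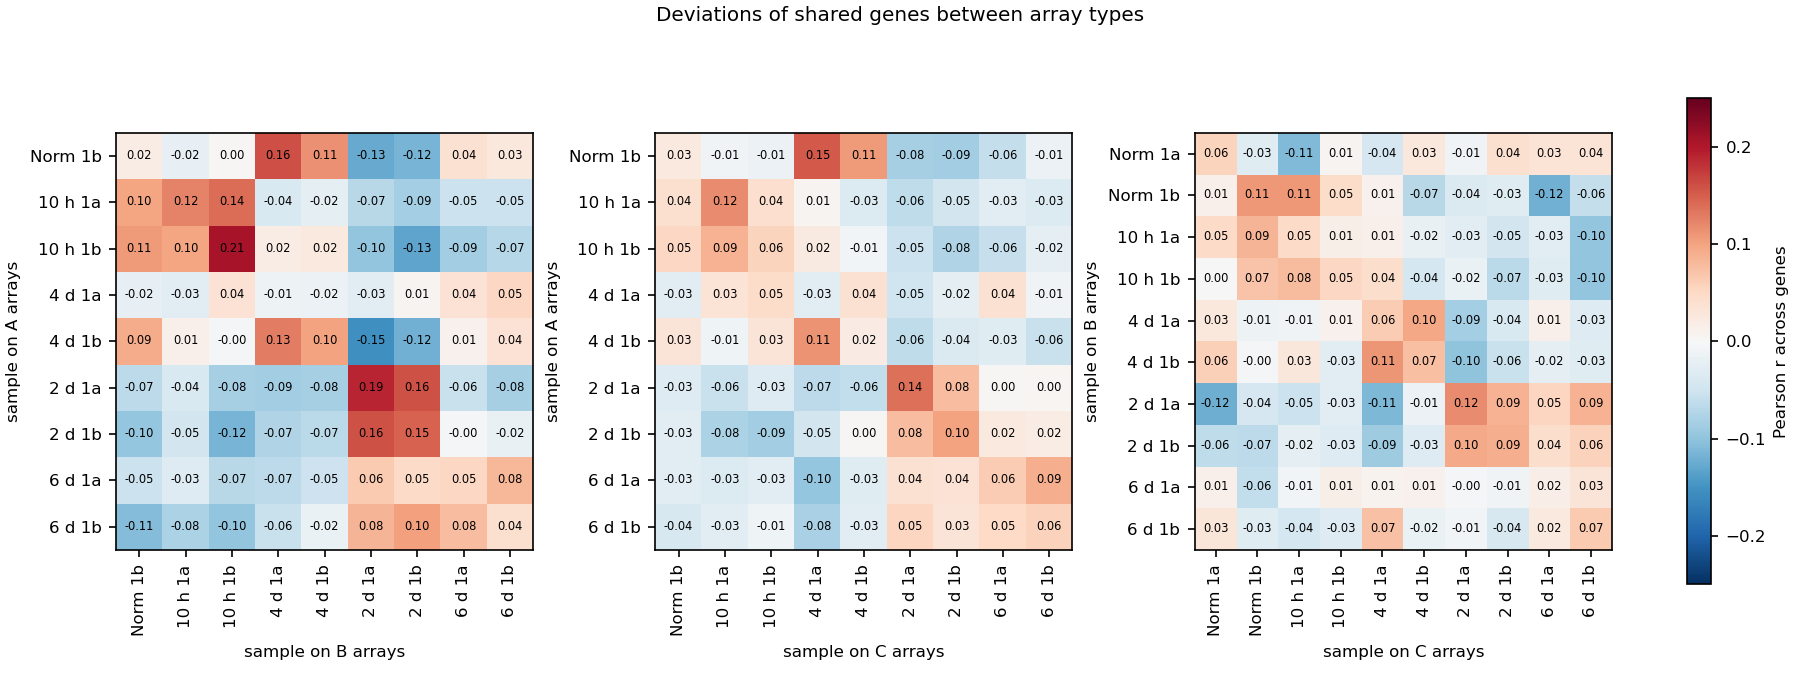
Pearson correlation across shared genes between the deviations of each sample on one array type (rows) and each sample on another (columns), for A against B, A against C and B against C. The A row Norm 1b is pale in its own column (0.02 and 0.03) and strongest red at 4 d 1a (0.16 and 0.15), whereas both A rows of 10 h are red in the 10 h columns.

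RNA controls differed between samples. Gapdh signal at the 3' end divided by that at the 5' end lay between 0.786 and 1.11 at 10 h and between 0.815 and 1.51 in Norm. For beta-actin the 10 h arrays of B and C lay between 0.0430 and 0.105, A 10 h 1a at 0.0862 and A 10 h 1b at 0.517. Norm 1a gave 0.0453 on B and 0.104 on C, whereas Norm 1b gave 0.644 on A, 0.775 on B and 0.926 on C. On A and B the brightest probe sets read lower on 10 h 1a than on 10 h 1b, and on C hardly so. Among the 100 brightest probe sets of each type, 10 h 1a was the lower for 97 (A), 81 (B) and 59 (C). The median differences were -0.57, -0.38 and -0.09 log2 units. The part of these differences in the results below was not tested. Arrays of 2 d had Gapdh ratios of 3.64 to 4.60, so values against all other arrays pooled carry that difference too.

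Against Norm and 4 d pooled, 14 probe sets (0.0543%) passed an adjusted p of 0.05, 12 of them higher at 10 h. Against all other arrays pooled, 59 (0.229%) passed, 51 of them higher, and 11 passed against both references. Among the 59, all other arrays lay at the floor for 14. Against 4 d alone, 6 (0.0233%) passed, of which Fst, Acta1 and Ppp1ca also lie among the 24 genes of smallest p against Norm. The other 3 (Ankrd37, Ntrk2 and Mgst3, named here after their values were seen) differed from Norm by 0.27 ± 0.22, -0.09 ± 0.20 and -0.03 ± 0.21, so there 4 d was the group that stood apart. By gene, 3.63% read higher and 3.48% lower than Norm and 4 d pooled at an unadjusted p under 0.05. Both 10 h arrays lay above every other array of their type by at least 1.5-fold for 31 representative genes (0.238%), and below by as much for 11 (0.0843%). By probe set, these were 34 above and 2 below on A, 2 and 1 on B, and 18 and 20 on C.

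Edn1, the precursor of endothelin-1, read 3370 and 3220 at 10 h and 710 on Norm 1b. The 4 d arrays read 2373 and 1058, the 2 d arrays 1878 and 1987 and the 6 d arrays 1720 and 1573. Both 10 h arrays lay above all others, and Norm 1b was the lowest. The difference was 2.21 ± 0.39 on the log2 scale (SE, n = 2 and 1), or 4.64-fold, with an adjusted p of 0.282. A separate Edn1 probe set read 2106 and 2281 at 10 h, 678 on Norm 1b and at most 1265 elsewhere, a difference of 1.69 ± 0.24. Edn1 was 1 of 3 genes, of 5141 with several tested probe sets, whose probe sets all differed by at least 1 log2 unit in 1 direction with an unadjusted p under 0.05. Against Norm and 4 d pooled the first probe set gave 1.44 ± 0.39 (adjusted p = 0.368).

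Sox17, a transcription factor of arterial endothelium, read 6293 and 6217 at 10 h, 1592 on Norm 1b and between 1542 and 3678 on the other A arrays. Its 10 h values were close together and above all others. The difference was 1.97 ± 0.34, with 1.32 ± 0.30 by the other A probe set and -0.64 ± 0.38 by the C probe set, so the array types disagreed. Ccn2, a matrix-associated growth factor also called CTGF, read 8694 and 10715 at 10 h, 2309 on Norm 1b and at most 4425 elsewhere (2.06 ± 0.37). Rgcc, a cell cycle regulator expressed in endothelium, read 3755 and 4252 at 10 h, 1809 on Norm 1b and at most 2330 elsewhere. For Rgcc the difference from Norm and 4 d pooled was 1.16 ± 0.15 with an adjusted p of 0.0453.

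Over the list of 33 tested vasoactive genes the median difference was 0.10, 20 read higher, 2 of them at an unadjusted p under 0.05 (Edn1 and Ace), and 1 read lower at that level (Npr3). The sign of that median turned with the reference: from Norm and 4 d pooled it was -0.01, with 16 higher and 17 lower, and without Norm 1b it was -0.14. Ace, which forms angiotensin II and breaks down bradykinin, read 4433 and 5339 at 10 h and 3351 on Norm 1b. Its 2 d arrays read 5887 and 5545, so the 10 h arrays were not outside the other groups, and a second Ace probe set gave -0.13 ± 0.27. Npr3, the clearance receptor for natriuretic peptides, read 254 and 234 at 10 h and 538 on Norm 1b, and its 3 probe sets gave -1.14 ± 0.43, -1.39 ± 0.34 and -0.26 ± 0.21. Nos3, the endothelial nitric oxide synthase, read 483 and 242 at 10 h and 83.3 on Norm 1b, with 6 d at 456 and 481, so 10 h and 6 d overlapped. The endothelin B receptor Ednrb read 7617 and 8203 on B at 10 h against 5230 and 6146 in Norm, a difference of 0.48 ± 0.18, with 4 d higher still at 8440 and 9113, while its A probe set was under the floor at 10 h. Bmpr2, the BMP receptor mutated in heritable pulmonary hypertension, gave -0.48 ± 0.34 by its representative and between -0.40 and 0.42 by 4 others.

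Fst encodes follistatin, a secreted protein that binds and blocks activins. Fst read 969 and 1079 at 10 h and 18.0 on Norm 1b, which is under the floor. The 2 d arrays read 265 and 276, and the 4 d and 6 d arrays between 28.9 and 241. Both 10 h arrays stood 1.81 log2 units or more above every other A array. Its difference from Norm was at least 4.33-fold, since Norm 1b lay at the floor (adjusted p = 0.110). Against 4 d it was 2.10 log2 units or more (adjusted p = 0.0181), and against Norm and 4 d pooled 2.11 or more (adjusted p = 0.00712). These too are lower bounds, since Norm 1b and 4 d 1b were set to the floor and 4 d 1a lay just above it. A dim B probe set of Fst gave 0.23 ± 0.15, with 262 and 408 at 10 h and 202 and 132 in Norm. Of the whole list of 39 activin, TGF-beta and BMP genes, Fst included, 22 read higher with a median of 0.03. Fst and Bmp6 (-0.81 ± 0.32) were its only members at an unadjusted p under 0.05.

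**Figure D3:**
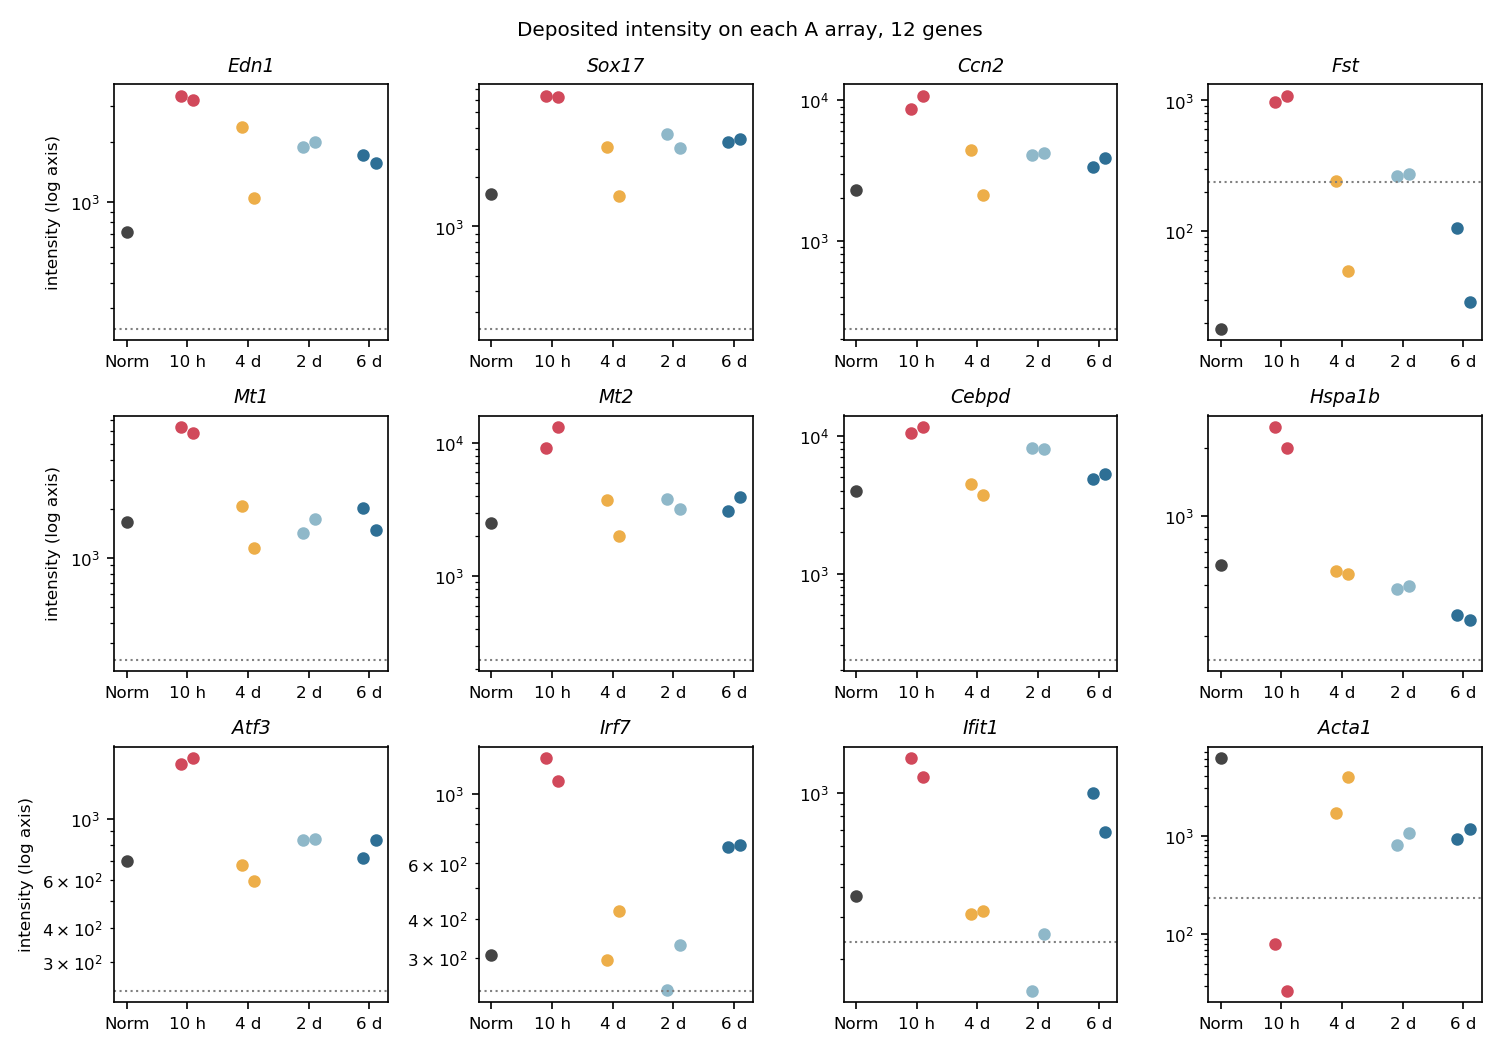
Deposited intensity (log y axis, range set per panel) of 12 genes on each of the 9 A arrays used, grouped as Norm, 10 h, 4 d, 2 d and 6 d, with 1 point per array and the floor as a dotted line. In 11 panels both 10 h points lie above every other point; for Acta1 both lie below every other point and under the floor.

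Genes that glucocorticoids raise mostly read higher. Of 38 tested, 27 read higher with a median of 0.28, 10 of them (26.3%, against 2.69% of all genes) at an unadjusted p under 0.05, and 1 read lower at that level. With Norm and 4 d pooled as reference, 15 read higher and 1 lower at that level, with a median of 0.27. Of the 38 genes, 33 were followed on A, and the 5 on B and C all read higher, with a median of 0.38. The metallothioneins Mt1 and Mt2, small proteins that bind zinc and copper and that respond to metals and to glucocorticoids, had the largest differences of the list. Mt1 read 6368 and 5888 at 10 h, 1666 on Norm 1b and at most 2088 elsewhere. Mt2 read 9165 and 13105 at 10 h, 2495 on Norm 1b and at most 3922 elsewhere. All 10 h values lay above all others, and the differences from Norm were 1.88 ± 0.34 and 2.14 ± 0.37. Against Norm and 4 d pooled they were 1.95 ± 0.24 and 2.05 ± 0.26, each with an adjusted p of 0.0387. A B probe set of Mt1 read 3985 and 4710 at 10 h and 3853 and 5003 in Norm.

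Because both metallothioneins read higher on the same arrays, the 250 bases before their annotated starts are shown (RefSeq, GRCm38.p6, plus strand, Mt1 at chr8:94178839-94179088 and Mt2 at chr8:94172368-94172617). Capitals mark matches, on either strand, to the core TGCGCNC or TGCACNC of the element that the metal-sensing factor Mtf1 binds.
Mt1: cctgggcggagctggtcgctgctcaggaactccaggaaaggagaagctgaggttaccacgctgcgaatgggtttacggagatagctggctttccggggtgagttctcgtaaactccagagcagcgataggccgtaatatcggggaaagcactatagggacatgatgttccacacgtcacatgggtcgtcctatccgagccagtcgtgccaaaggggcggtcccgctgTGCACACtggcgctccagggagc
Mt2: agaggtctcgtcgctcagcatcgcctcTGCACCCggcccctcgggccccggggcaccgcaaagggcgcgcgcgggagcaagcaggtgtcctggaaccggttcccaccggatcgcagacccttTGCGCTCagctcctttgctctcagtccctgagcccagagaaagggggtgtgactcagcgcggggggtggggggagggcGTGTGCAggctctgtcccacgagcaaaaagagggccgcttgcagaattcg
The Mt1 stretch held 1 match and that of Mt2 held 3. These counts hold for the stretches shown and are not those of the whole promoter of either gene. Of 27025 genes with such a stretch, 23.8% held at least 1, so a match is common and is only a description. The other 26 tested genes of the metal and redox list had no member at an unadjusted p under 0.05, and the list's median was -0.03. Hmox1, heme oxygenase 1, gave -0.28, and the zinc exporter Slc30a1 gave -0.06.

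Cebpd, a transcription factor of the acute phase, read 10477 and 11603 at 10 h and 4010 on Norm 1b. Its 2 d arrays read 8193 and 7982, and the 4 d and 6 d arrays between 3705 and 5312. The 10 h arrays were again the highest, 1.46 ± 0.20 above Norm and 1.44 ± 0.14 above Norm and 4 d pooled (adjusted p = 0.0158). Fkbp5, a co-chaperone of the glucocorticoid receptor, read 1322 and 1214 at 10 h, 528 on Norm 1b and at most 761 elsewhere (1.26 ± 0.26). Ddit4, an inhibitor of mTOR signalling raised by glucocorticoids and by hypoxia, read 991 and 1008 at 10 h and 484 on Norm 1b. For Ddit4 the 2 d arrays (1480 and 1352), 4 d 1a (1545) and 6 d 1b (1124) were higher than 10 h, and against Norm and 4 d pooled the difference was 0.25 ± 0.38. Sgk1, a kinase that acts on sodium channels, read 4964 and 5202 against 3696 (0.46 ± 0.18). Per1, a clock gene with glucocorticoid control, read 1542 and 1529 against 1209 on Norm 1b, and between 370 and 1027 elsewhere.

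Among 22 tested clock genes 15 read higher, with a median of 0.19. Bhlhe40, a repressor in the clock that is also raised by hypoxia, read 2317 and 2068 at 10 h, 1065 on Norm 1b and at most 1324 elsewhere (1.04 ± 0.24). Tef, a clock output factor, read 4290 and 3720 against 2693 (0.57 ± 0.23). Nfil3, which opposes Tef at the same sites, read 190 and 283 against 445 (-0.78 ± 0.24), with 4 d between 38.4 and 304. Without Norm 1a the list's median was -0.07. The hour of day at which lungs were taken is not given.

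The inducible heat shock protein 70 genes lay far above their values on all other A arrays. Hspa1b read 2457 and 1997 at 10 h, 613 on Norm 1b and at most 575 elsewhere. Hspa1a read 2061 and 1931 at 10 h, 454 on Norm 1b and at most 727 elsewhere. The 2 genes are near-identical copies whose probe sets may share signal, so they count as 1 observation. Hspa1b was 1.85 ± 0.27 above Norm and 1.93 ± 0.20 above Norm and 4 d pooled (adjusted p = 0.0158). A dim C probe set of Hspa1a, at the floor on most arrays, gave 0.04 ± 0.24. Over 44 heat shock and unfolded protein genes the median was 0.09, with 4 higher and 2 lower at an unadjusted p under 0.05. Dnajb1, a partner of Hspa1a, gave 0.34 ± 0.29, Atf4, a factor of the integrated stress response, 0.79 ± 0.24, and Hspb6, a small muscle chaperone, -0.50 ± 0.15.

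Immediate early genes, which encode factors induced within minutes by many stimuli, mostly read higher. Of 39 tested, 28 read higher with a median of 0.29, 6 of them (15.4%) at an unadjusted p under 0.05, and 1 lower. Against Norm and 4 d pooled, 32 read higher with a median of 0.43, 13 of them at that level, and with probe sets of B and C alone the median was 0.34. Atf3, a stress-induced repressor, read 1583 and 1662 at 10 h, 699 on Norm 1b and at most 843 elsewhere (1.21 ± 0.24). A second Atf3 probe set gave 0.96 ± 0.28. Ccn1, a matrix protein induced by serum and stretch, read 1529 and 1343 against 717, with at most 765 elsewhere (2.00-fold, SE 0.33 on the log2 scale). Fos, a subunit of AP-1, read 2547 and 2370 against 1279, and 4 d 1b reached 1703 (0.94 ± 0.50). Egr1, a zinc finger factor, read 2439 and 1664 against 1179 (0.77 ± 0.30), and Klf4, a factor of epithelium and endothelium, 6936 and 7949 against 4761 (0.64 ± 0.19). For each of these the 10 h arrays were above every other A array.

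Interferon-stimulated genes had the highest median of the 32 lists, at 0.47, against 0.00 over all genes. Of 41 tested, 36 read higher, 12 of them (29.3%) at an unadjusted p under 0.05, and 1 (Xaf1) lower. Without Norm 1b the median was 0.18. Against Norm and 4 d pooled 38 read higher and 19 passed that level, with a median of 0.39. The higher values came from A: on B and C alone, with a probe set chosen there for each gene, the median was 0.02. Irf7, the factor that amplifies type I interferon, read 1298 and 1101 at 10 h and 307 on Norm 1b. Its 6 d arrays read 678 and 686, and the 2 d and 4 d arrays between 237 and 425, so 6 d lay between. A C probe set of Irf7 read 24513 and 24682 at 10 h, 7502 on Norm 1a and 25494 on Norm 1b, so that there the groups overlapped.

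Ifit1, which binds foreign RNA caps, read 1403 and 1168 at 10 h, 369 on Norm 1b, 308 and 317 at 4 d, and 1003 and 686 at 6 d. It was 1.80 ± 0.33 above Norm and 1.95 ± 0.25 above Norm and 4 d pooled (adjusted p = 0.0387). Ifit3, its neighbour on the chromosome, read 3068 and 2821 at 10 h, 1194 on Norm 1b and at most 1453 elsewhere (1.30 ± 0.44). Usp18, a protease that removes the ubiquitin-like Isg15 and limits interferon signalling, read 2174 and 1518 against 624, with at most 1094 elsewhere (1.54 ± 0.29). The 6 d arrays stood next below 10 h for Ifit1 and Usp18. Igtp, an immunity GTPase raised by interferon gamma, read 1486 and 1595 against 841 (0.87 ± 0.22), with 6 d at 1445 and 1320.

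The stretches before Ifit1 (chr19:34640639-34640888) and Ifit3 (chr19:34583279-34583528), both on the plus strand of GRCm38.p6 from RefSeq, show what these genes share. Capitals mark matches to GAAANNGAA, the core that factors of the Irf family bind, which all lie on the opposite strand here.
Ifit1: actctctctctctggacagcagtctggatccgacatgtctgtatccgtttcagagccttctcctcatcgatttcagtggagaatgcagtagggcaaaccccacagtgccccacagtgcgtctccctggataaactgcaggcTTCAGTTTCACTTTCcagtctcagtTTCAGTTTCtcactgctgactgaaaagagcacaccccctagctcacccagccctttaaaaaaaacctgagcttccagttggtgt
Ifit3: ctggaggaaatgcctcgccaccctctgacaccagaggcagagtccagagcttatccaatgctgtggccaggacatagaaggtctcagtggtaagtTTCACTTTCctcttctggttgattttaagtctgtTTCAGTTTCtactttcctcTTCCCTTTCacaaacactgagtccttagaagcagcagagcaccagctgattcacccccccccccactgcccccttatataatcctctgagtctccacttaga
Each stretch held 3 matches, and in Ifit1 a pair of them overlap. Of the 39 interferon list genes with a stretch, 19 (48.7%) held a match on either strand, against 8.18% of 27025 genes. The list was drawn up from known targets, so this describes the list and not the response at 10 h.

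Chemokines and acute phase genes were mixed. Of 29 tested, 17 read higher with a median of 0.07, and 7 (24.1%) were higher at an unadjusted p under 0.05, against none lower. Socs3, the feedback inhibitor of cytokine receptors, read 1228 and 1411 at 10 h, 401 on Norm 1b and at most 801 elsewhere. Its 3 probe sets all read higher, by 1.71 ± 0.60, 1.55 ± 0.23 and, on B, 0.72 ± 0.30, though on B the 2 d arrays reached 974. Cxcl1, a neutrophil chemokine, read 396 and 402 at 10 h and at most 241 elsewhere, with Norm 1b under the floor at 133. Ccl2, a monocyte chemokine, read 413 and 447 against 72.1, and 2 d reached 322. Ccl17, a T cell chemokine, read 555 and 895 against 51.9, and 2 d 1a at 635 fell within the 10 h values. The neutrophil list had 0 of 16 tested genes at an unadjusted p under 0.05 in either direction with a median of -0.04, and S100a8, abundant in neutrophils, read 1345 and 1321 against 1674.

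The classical HIF targets were close to all genes in their median, with a few members far above it. Of 55 tested, 35 read higher with a median of 0.06, 6 (10.9%) of them at an unadjusted p under 0.05 and 2 lower. The 6 were Edn1, Lox, Bnip3, Ddit4, Bhlhe40 and Jmjd6. Lox, which cross-links collagen, read 1589 and 1685 at 10 h and 463 on Norm 1b, but also 1569 on 4 d 1a and 1393 and 1422 at 6 d (1.82 ± 0.59). Bnip3, which marks mitochondria for removal, read 1512 and 1324 against 678, with 6 d 1a at 1226 (1.06 ± 0.31). Vegfa, the vascular growth factor, read 2894 and 2586 against 2289, and its 3 probe sets gave 0.26 ± 0.44, 0.47 ± 0.54 and -0.14 ± 0.38. The glucose transporter Slc2a1 read 318 and 272 against 63.7 on Norm 1b, under the floor, and 2 d 1a read 272. Its difference of 0.32 is therefore a lower bound, and it was 2.06 with the floor at the 20th percentile. Pdk1, which keeps pyruvate out of mitochondria, read 832 and 918 against 761 (0.20 ± 0.26), and Adm, the dilator adrenomedullin, 221 and 256 against 157, near the floor. A brighter Adm probe set on C read 920 and 1023 at 10 h and 741 and 458 in Norm (0.74 ± 0.31), with 2 d at 1033 and 1116.

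Of the HIF machinery, 0 of 13 genes passed an unadjusted p under 0.05. Hif1a read 5241 and 5098 at 10 h and 4787 on Norm 1b (0.11 ± 0.22). Epas1, bright in lung endothelium, read 9417 and 19736 at 10 h and 20553 and 31318 in Norm on B (-0.90 ± 0.42). The lowest value was that of 10 h 1a, on which bright probe sets of B read lower than on 10 h 1b. Both 10 h arrays lay below both Norm arrays. Cxcr4, a chemokine receptor counted both as a HIF target and as an angiogenic gene, read 340 and 251 at 10 h and 778 on Norm 1b (-1.41 ± 0.51). The 2 d, 6 d and 4 d 1a arrays read between 226 and 444 and 4 d 1b read 781, so here Norm 1b and 4 d 1b were the high arrays.

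Genes of angiogenic signalling read lower in 26 of 32 cases, with a median of -0.19, and 4 (12.5%) were lower at an unadjusted p under 0.05 against none higher. Notch4, an endothelial Notch receptor, read 565 and 501 at 10 h, 996 on Norm 1b and at least 704 elsewhere (-0.90 ± 0.28), though its other probe sets gave 0.35 ± 0.37 and 0.04 ± 0.30. Met, the receptor for hepatocyte growth factor, read 1036 and 1211 at 10 h against 1918 and 1655 in Norm on B, and at least 1393 elsewhere (-0.67 ± 0.19). Angpt2, an antagonist of the receptor Tek, read 352 and 282 against 523 (-0.73 ± 0.31). On these probe sets the 10 h values of Notch4 and Met lay below all other arrays. Endothelial markers as a whole had a median of -0.16 (0.03 without Norm 1b and 0.02 without 10 h 1a), with 2 of 35 higher (Sox17 and Icam2) and 1 lower (Sox18, -0.73 ± 0.24) at an unadjusted p under 0.05.

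Striated muscle transcripts were the lowest group. Of 28 tested skeletal muscle genes, 10 (35.7%, against 2.87% of all genes) were lower at an unadjusted p under 0.05 and none higher, with a median of -0.42. That median rests on the 23 genes followed on A: over the 5 followed on B and C it was 0.00 with 2 higher, and without Norm 1b, which removes A, it was -0.06. From Norm and 4 d pooled it was -0.48. Acta1, skeletal alpha-actin, read 80.1 and 26.9 at 10 h, both under the floor, and 6076 on Norm 1b. It read 1700 and 3941 at 4 d, 801 and 1060 at 2 d and 915 and 1160 at 6 d. The 10 h arrays were at least 25.7-fold below Norm 1b (adjusted p = 0.0743) and at least 3.45 log2 units below 4 d (adjusted p = 0.0386). Set against Norm and 4 d pooled, 10 h was at least as far below as a difference of -3.87 (adjusted p = 0.0236), a bound for the same reason that both 10 h values lay under the floor. Atp2a1, the calcium pump of fast muscle, read 52.8 and 187 against 1074, and Myh1, a fast myosin, 15.0 and 9.39 against 607, all under the floor at 10 h.

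These genes mark a tissue that whole lung samples may carry along. The summed intensity of the 23 skeletal genes measured on A was 19036 on Norm 1b, 18747 on 4 d 1b and 12459 on 4 d 1a, against 8055 and 7466 at 10 h and 9291 to 10625 at 2 d and 6 d. The 10 h arrays were thus the lowest of the 9 and Norm 1b the highest, and how much muscle each sample held was not tested. On B, the sum over 4 genes was 2297 and 1567 in Norm and 1473 and 1687 at 10 h, which overlapped. Of 36 cardiac genes, some shared with the skeletal list, 11 (30.6%) were lower and 1 (Actc1) higher at an unadjusted p under 0.05, with a median of -0.27. Over the 9 followed on B and C the median was -0.04. From Norm and 4 d pooled it was -0.36 over the whole list, and from all other arrays pooled -0.08. The cardiac sum on A was 39264 on Norm 1b, 30859 and 32725 at 10 h, and 23894 to 29760 at 2 d and 6 d. On B the sums at 10 h (5585 and 7031) and in Norm (7470 and 5993) overlapped. Myh6, the atrial and cardiac myosin, read 1712 and 1884 at 10 h and 3099 on Norm 1b, but 1814 and 1441 at 2 d, so the 10 h arrays were not outside the others. Myl7, an atrial light chain found in the muscle sleeves of pulmonary veins, read 2500 and 2836 against 4975, with 1758 to 3181 elsewhere.

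Among 24 smooth muscle genes the median was 0.13, and 1 had an unadjusted p under 0.05. The median was -0.12 with probe sets of B and C alone and -0.15 without Norm 1b, so its sign rests on A. The 1 gene was Cnn1, calponin of contractile smooth muscle, with 2713 and 2851 at 10 h, 1524 on Norm 1b and at most 1427 elsewhere (0.87 ± 0.28). Tagln, another contractile protein, read 7100 and 8739 against 5191, but 2 d reached 10151. Of 51 matrix genes 3 were higher and 1 lower at that level, and Mmp3, a stromelysin, read 2343 and 2789 against 1279 (2.00-fold, SE 0.25 on the log2 scale). Tnc, tenascin C, read 623 and 659 at 10 h, with Norm 1b under the floor at 206 and 4 d 1a at 925.

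**Figure D4:**
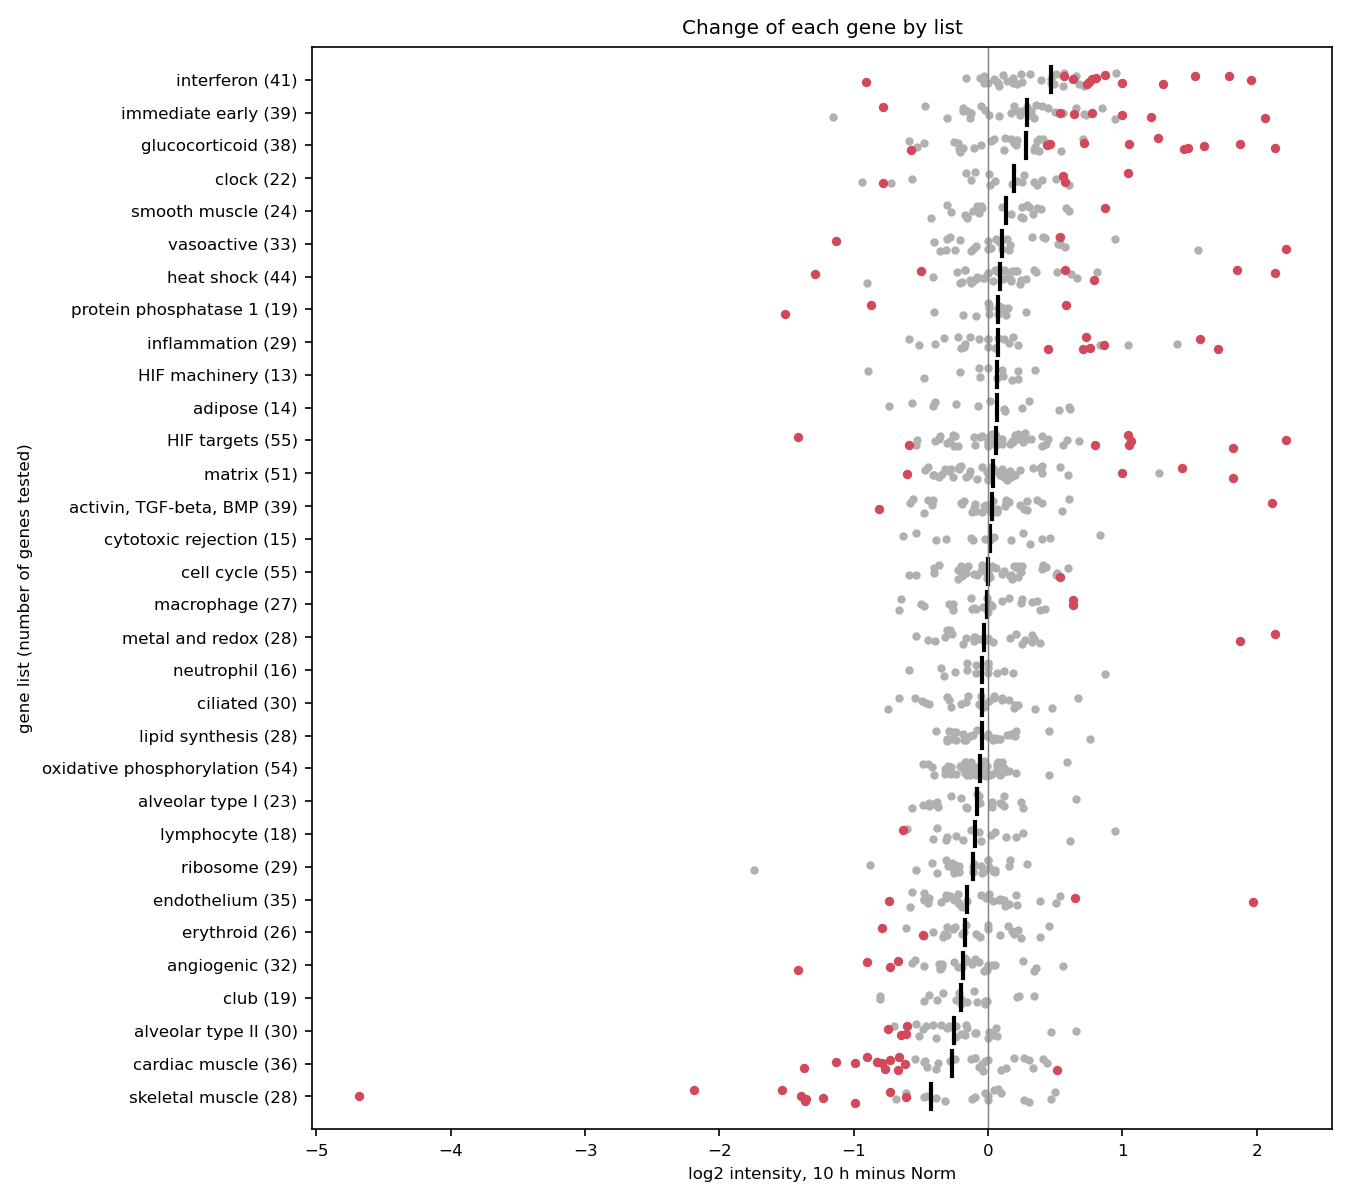
Difference in log2 intensity (10 h minus Norm, x axis) of every tested gene in each of 32 lists (y axis, number tested in parentheses), 1 point per gene, red where the unadjusted p was under 0.05, with a black bar at the list's median. Medians run from -0.42 for skeletal muscle to 0.47 for interferon.

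Alveolar type II and club cell genes tended to read lower, most of all on 10 h 1a. Of 30 alveolar type II genes 23 read lower with a median of -0.25, 4 (13.3%) of them at an unadjusted p under 0.05 (Acot1, Hc, Chil1 and Egfl6) and none higher. Their summed intensity on A was 59380 on 10 h 1a, 86103 on 10 h 1b and 95345 on Norm 1b. Without 10 h 1a the list's median was -0.08. Sftpc, a surfactant protein, read 3316 and 10409 at 10 h and 7199 on Norm 1b, so the 10 h arrays spanned Norm, and at 2 d it reached 42808. Scgb1a1, the secretoglobin of club cells, read 4110 and 13291 against 12923, with a like spread. Of 19 club cell genes 16 read lower with a median of -0.20, none at that level, and the median was 0.06 without 10 h 1a. Of 23 alveolar type I and 30 ciliated genes, 14 and 18 read lower, with medians of -0.09 and -0.05 and 0 members at that level. On A their sums were lower on 10 h 1a (62491 and 18234) than on 10 h 1b (101172 and 23486). On B the sums were lower on 10 h 1a too (32223 and 8377, against 39912 and 10592). On C they were higher on 10 h 1a (91298 and 17488) than on 10 h 1b (87915 and 13200).

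Krt4, a keratin of stratified and airway epithelium, read lower on both types that carry it. Which of these epithelia its signal came from was not tested. On A it read 917 and 1318 at 10 h, 2450 on Norm 1b and at least 1648 elsewhere (-1.16 ± 0.23). On C it read 74.4 and 193 at 10 h, 852 and 614 in Norm, and at least 248 elsewhere. Both 10 h values on C lay under the floor, so the difference there, -1.85, is a bound. The 10 h arrays lay below all others on both types, on 10 h 1b as well as 10 h 1a. Ecrg4, a secreted peptide precursor also known as augurin, read 996 and 682 at 10 h and 1753 and 1711 in Norm on B (-1.07 ± 0.29), and a second probe set gave -1.39 ± 0.34. For Ecrg4 the 4 d arrays read 719 and 1218, so 10 h and 4 d overlapped. With Edn1, these are the 3 genes whose probe sets all agreed.

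Some of the genes of smallest p on B and C, where Norm had 2 arrays, are described here. Other tested probe sets are given where such a gene had any, except for Zfp707. Gabra4, Rimklb and Elmod2, which also had a further tested probe set, are not described, nor are Fhod1, Lypd1 and 1700013D24Rik. Ube2d2a gave 0.99 ± 0.20 on C and -0.20 by its A probe set. Ppp1ca, a catalytic subunit of protein phosphatase 1, read 1611 and 1690 at 10 h on C and 4084 and 5424 in Norm. It read 4203 to 8870 on the other C arrays, so 10 h stood below all, at -1.51 ± 0.16 (adjusted p = 0.0743) and at -2.39 from 4 d (adjusted p = 0.00184). Its B probe set read 1267 and 1224 at 10 h against 1540 and 1363 in Norm (-0.22 ± 0.17). Pdzd8, a tether between organelles, read 494 and 557 at 10 h on C against 2710 and 1537 (-1.96 ± 0.32), and 4 other probe sets gave between -0.04 and 0.22. Lyrm4, a protein of iron-sulfur cluster assembly, gave -2.08 ± 0.37 on C and between 0.03 and 0.61 by 3 others. Mvd, an enzyme of sterol synthesis, gave -1.33 ± 0.24 on C and lay at the floor on A at 10 h and Norm 1b. Usp35, a deubiquitinase with 1 tested probe set, read 228 and 89.0 at 10 h against 1098 and 1586 in Norm, and at least 634 elsewhere (-2.63 ± 0.40).

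**Figure D5:**
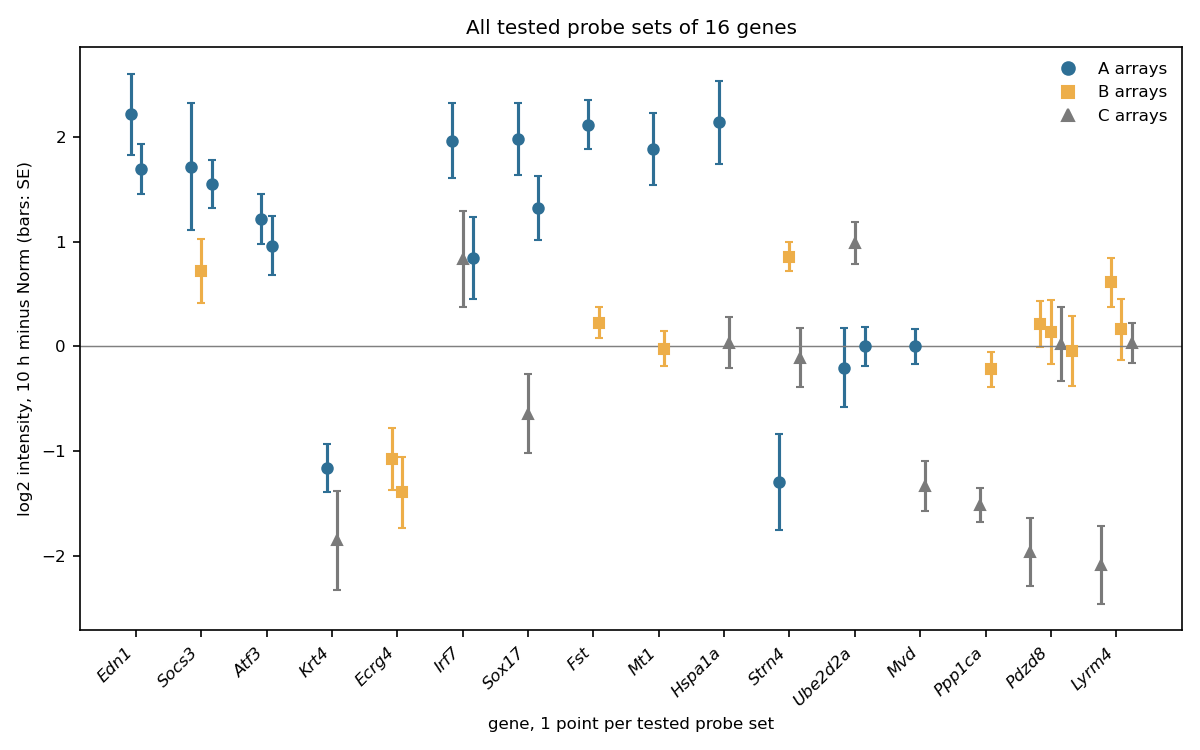
Difference in log2 intensity (10 h minus Norm, y axis, bars are SE) of every tested probe set of 16 genes (x axis), with the marker showing the array type. The probe sets of Edn1, Socs3, Atf3, Krt4 and Ecrg4 lie on one side of 0. For Ppp1ca, Pdzd8 and Lyrm4 a single C probe set lies far below the others. Those of Strn4, Sox17 and Ube2d2a lie on both sides of 0.

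Of the genes that read higher on B and C, Strn4, a scaffold of phosphatase 2A, read 575 and 504 at 10 h on B, where both Norm arrays lay under the floor. Its 4 d arrays read 529 and 477, its C probe set gave -0.11 ± 0.28 and its A probe set -1.29 ± 0.45. Zfp707, a zinc finger gene, read 2071 and 3168 against 1162 and 617 on C (1.60 ± 0.30), and 2184 to 3713 elsewhere, so Norm was the group that stood apart. Hs3st3b1, a heparan sulfate sulfotransferase, read 709 and 868 at 10 h on B against 380 and 281 (1.22 ± 0.25), with 4 d at 591 and 630. Afm, afamin, a carrier protein of plasma, read 374 and 529 on C against 152 and 211, and at most 163 elsewhere (1.11 ± 0.20). Col27a1, a fibrillar collagen chain outside the rule for named genes and chosen after its values were seen, read 647 and 734 at 10 h on B, 392 and 218 in Norm and at most 313 elsewhere. It was 1.09 ± 0.14 above Norm and 4 d pooled with an adjusted p of 0.0387. Some signals were dim: of the 18 probe sets of C that lay above all other C arrays at 10 h by at least 1.5-fold, 8 had every other array at the floor.

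Among markers of blood and immune cells, the erythroid genes had the lowest median. Of 26 tested, 17 read lower with a median of -0.17, with Ank1 (-0.79 ± 0.25) and Car2 (-0.49 ± 0.17), 7.69% of the list, at an unadjusted p under 0.05. Of 18 lymphocyte genes 1 (Cd79b, -0.63 ± 0.27) passed that level, and of 27 macrophage genes 2 (Cd44, 0.63 ± 0.18, and Fcgr1, 0.63 ± 0.27). Since the Norm description names a rejection, a list of cytotoxic and rejection genes was also examined. Of 15 tested, 8 read higher and 7 lower, the median was 0.01 and 0 passed an unadjusted p under 0.05. Against Norm and 4 d pooled, 3 were higher at that level and 0 lower. On A, which followed 11 of the 15, Norm was 1 array. The sum of those 11 was 44040 on Norm 1b, 33272 and 37703 at 10 h, and 28445 to 41263 elsewhere. Ccl5, a T cell chemokine of that list, read 1592 and 1366 at 10 h and 826 on Norm 1b, and Cd74, of antigen presentation, 11754 and 15559 against 19575. Ribosomal, respiratory chain, cell cycle and sterol genes had medians of -0.11, -0.06, 0.00 and -0.05, with 0, 0, 1 and 0 members at that level. Cell cycle genes depended on the reference: from Norm and 4 d pooled 46 of 55 read lower, with a median of -0.23, and from 4 d alone the median was -0.37.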

How the data were processed

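Total lung RNA had been hybridised to Affymetrix arrays, and the authors deposited 1 intensity per probe set and array, on a linear scale. The values show that each array had been scaled to 1 trimmed mean, equal to within 0.0111% across arrays; the software used is not given in the sources used here. A probe set's gene came from the platform annotation (29137 with 1 symbol, 718 with several and 6846 with none), with 29110 symbols updated through Entrez IDs.

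Values were floored at the 40th percentile of the array type, probe sets above that floor on at least 2 arrays were kept, and log2 values were fitted with limma 3.58.1 in R 4.3.3 (means of 5 groups per type, trended moderation, Benjamini-Hochberg over the 3 types). Tables were made with Python 3.11.15 and pandas 2.3.3. The fit was tested on simulated data. A gene's representative was a probe set with a plain suffix and the highest mean level. Genes were named by p (the 12 smallest in each direction, and 8 on B and C alone), as up to 4 members of a list, from a fixed list, or by agreement of their probe sets. Outside that rule, Actc1, Col27a1, Hmox1, Ifit3, Jmjd6, Rgcc, Slc30a1 and Xaf1 were chosen after their values were seen. Members and lists were chosen with earlier results of these data known. Alternatives changed the scaling, floor, filter, groups fitted, replicate block and choice of probe set, and left out each sample. The pooled references and the 1.5-fold rule were added after the data had been seen. Same-lettered Norm and 10 h samples were checked for pairing and share only a letter.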

Additional observations from a re-analysis of the deposited data

How the results depend on the processing

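No probe set passed the adjusted test between 10 h and Norm in the fit reported (829 higher and 748 lower at an unadjusted p under 0.05, limma). The count was 1 with median scaling, 2 with a floor at the 20th percentile, 73 with no filter on dim probe sets, 21 with the 10 h and Norm arrays alone, 1 with adjustment within an array type, 14 against Norm and 4 d pooled and 59 against all other arrays pooled. Leaving out 1 sample gave 0 to 8: 8 without Norm 1a, 6 without 10 h 1b, 1 without 10 h 1a and 0 without Norm 1b, which removes type A. A strict filter left 519 higher at the unadjusted level. With the replicate block 0 passed, with 736 higher and 707 lower; deviations of same-lettered samples correlated at -0.115 on B and -0.0399 on C. The count between 10 h and 4 d, 6, was 13 with quantile normalization, 50 with no filter, 21 with the strict filter, 3 on B and C alone, and 5 to 10 with a 10 h sample left out (10 without 10 h 1b).

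Signs turned for a few genes: Bmpr2 with quantile normalization (0.11), Mvd on A with the replicate block (0.0060), Adm against Norm and 4 d pooled (-0.013) and against all others (-0.18), and, against all others, Ube2d2a on A (0.14), Ddit4 (-0.051) and Myl7 (0.021). Without 10 h 1a, Sftpc and Scgb1a1 turned, and their values with 1 sample left out ran from -1.12 to 0.53 and from -1.65 to 0.041. With the median over a gene's probe sets, Pdzd8 (0.025), Lyrm4 (0.10), Ednrb (0.10), Bmpr2 (0.056), Notch4 (0.044) and Fcgr1 (-0.030) turned. The cause was not tested. With 1 Norm array on A, the spread within Norm there was taken from the other groups. Besides those given with their results, the medians of the metal and redox (-0.10 to 0.10), inflammation (-0.05 to 0.16), heat shock (-0.02 to 0.12), activin (-0.06 to 0.07), HIF machinery, matrix (-0.16 to 0.08), macrophage, neutrophil, lymphocyte, ribosome (-0.22 to 0.10) and rejection (-0.06 to 0.15) lists also changed sign in at least 1 alternative. So did those of the alveolar type I (-0.24 to 0.07), ciliated (-0.07 to 0.23), protein phosphatase 1 (-0.04 to 0.13), fat (-0.02 to 0.30) and sterol (-0.11 to 0.003) lists.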
